A study of Homo sapiens with 9 samples.

Results

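RSL3, a small molecule that binds covalently to the lipid peroxidase GPX4 and inactivates it, was compared with its vehicle DMSO in cells labelled A549, and the protein-coding genes outside the usual markers of ferroptosis are described. The groups were RSL3 at 2 µM, RSL3 at 2 µM with the radical trap ferrostatin-1 (Fer-1) added at 5 µM, and DMSO, each for 24 h and each with 3 libraries made from total RNA. The labels name no genotype or added construct. Separate cultures are not mentioned in them either, so p-values measure the spread between these samples only. The members were the named loci typed protein-coding with at least 1 FPKM in at least 3 of the 9 libraries. Of 43444 loci in the deposited table, 15410 were named and typed protein-coding, and 9583 of these passed. The other 5827 stayed under the minimum. Just inside it, 86 loci reached it in exactly 3 libraries, and just outside it, 128 reached it in exactly 2. After 139 members of lists of ferroptosis regulators and markers, NRF2 targets, and iron and glutathione genes were set aside, 9444 outside members remained. Of these, 8865 reached the minimum in all 9 libraries, 13 reached it only in the 3 RSL3 libraries, and 5 only in the 3 DMSO libraries.

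GPX4 reduces lipid hydroperoxides in membranes with the help of glutathione. When it is blocked, lipid radicals spread through polyunsaturated membrane lipids and the cell dies by ferroptosis, which Fer-1 prevents by trapping those radicals. Oxidants also act on signalling proteins, among them growth factor receptors, MAP kinases, the AP-1 factors made of JUN and FOS proteins, and NF-kappa B. These pathways control secreted chemokines, adhesion proteins and the cytoskeleton in epithelial cells.

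Markers were set against the labels before the results. The A549 line is a lung adenocarcinoma line that is known to lack CDKN2A, CDKN2B and MTAP through a deletion on chromosome 9 and to express AKR1B10 and ALDH1A1 at high levels. In these libraries CDKN2A stood at 57.7 to 67.9 CPM, CDKN2B at 39.5 to 53.3 CPM and the locus that joins MTAP with CDKN2B-AS1 at 268 to 300 CPM across the 9 libraries. AKR1B10 stood at 0.206 to 0.601 CPM and ALDH1A1 at 0 to 0.206 CPM. Of the epithelial genes CDH1 lay at 0 to 0.198 CPM and ESRP1 at 0 to 0.309 CPM. KRT19 lay at 0 to 1.56 CPM, CLDN4 at 0.767 to 2.33 CPM and ELF3 at 6.45 to 12.1 CPM. CLDN1 stood at 33.8 to 61.3 CPM, while KRT7, KRT8, KRT18 and CPS1 were abundant. The data therefore go against the A549 label, and the cells are called the cells labelled A549. A second check concerned fibroblast genes in the controls. COL1A2, a chain of fibrillar collagen, had 2.26, 3.19 and 0.747 CPM in the RSL3 libraries, against 32.8, 41.3 and 1.79 CPM in DMSO libraries 1, 2 and 3. The 9 fibroblast markers summed to 55.6 to 59.8 CPM with RSL3, 46.2 to 52.1 CPM with RSL3 plus Fer-1, and 155, 179 and 59.3 CPM in DMSO libraries 1, 2 and 3. Of these 9 markers 2 passed the FPKM minimum and neither was called between RSL3 and DMSO in edgeR's quasi-likelihood test. COL1A1 was -1.95 on the log2 scale (adjusted p = 0.0792), and the locus that joins PDGFRA with FIP1L1 was -0.08 (adjusted p = 0.575). DMSO libraries 1 and 2 thus stand apart in collagen and matrix transcripts, and counts are also given with both left out. With both left out, 757 outside members were higher and 346 lower. That fit rests on DMSO library 3 alone, which is assumed to vary like the other groups, and the part of the fibroblast transcripts in the results was not tested. The blood list summed to 546 to 602 CPM in all 9 libraries, most of it from the locus that joins CD68 with SENP3 and EIF4A1, while the endothelial list summed to 4.49 to 8.76 CPM.

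**Figure D1:**
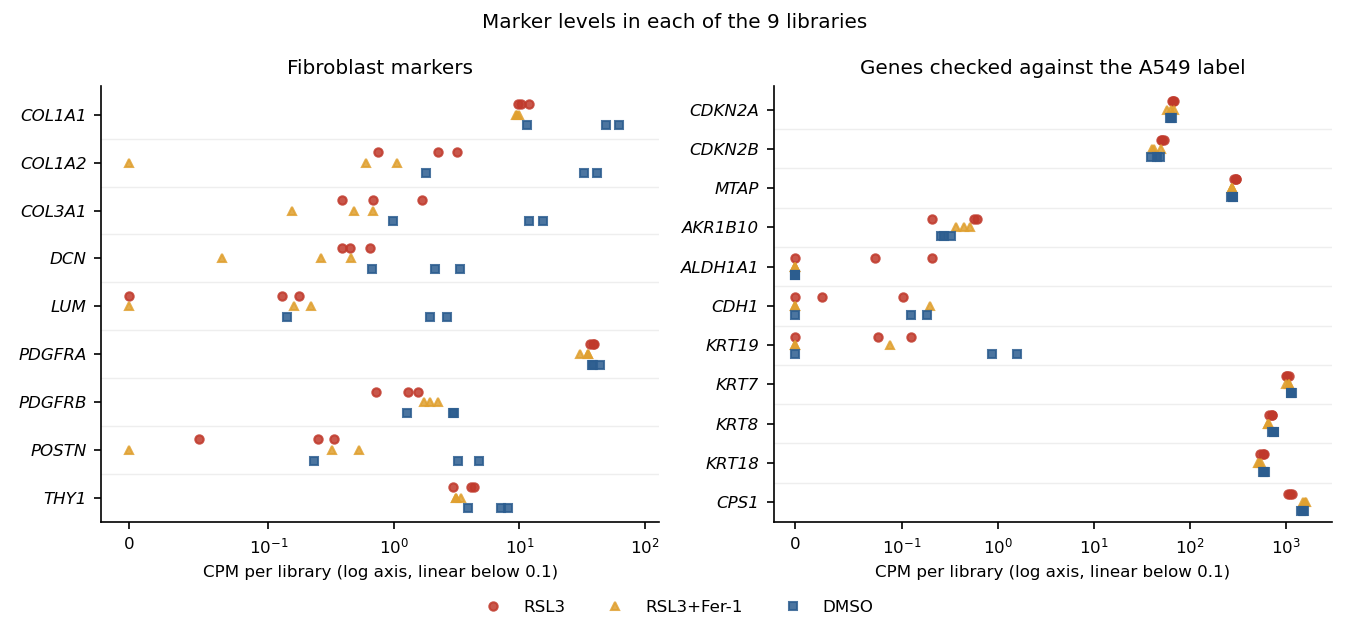
Marker levels per library in CPM on an axis that is linear near 0 and logarithmic above; each point is 1 library of RSL3, RSL3 plus Fer-1 or DMSO, and 1 panel holds fibroblast markers while the other holds genes checked against the A549 label. DMSO libraries 1 and 2 lie above the other 7 libraries for COL1A1, COL1A2 and COL3A1, and CDKN2A, CDKN2B and MTAP are expressed in all 9.

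In edgeR's quasi-likelihood test, with p-values adjusted by the Benjamini-Hochberg method over 17297 tested loci and called at an adjusted p under 0.05, 2854 loci (16.5%) were called between RSL3 and DMSO. Of the 9583 members 2388 (24.9%) were called, 1314 higher (13.7%) and 1074 lower (11.2%). Of the 9444 outside members 2306 (24.4%) were called, 1248 higher (13.2%) and 1058 lower (11.2%). The RSL3 and DMSO libraries did not overlap in 3777 of the outside members (40%). Most called changes were small. The median size of a called change was 0.27 on the log2 scale, and 1124 called members changed by less than 1.2-fold. The large changes were mostly rises, since 228 members were at least 1.5-fold higher and 38 at least 1.5-fold lower, and 47 were at least 2-fold higher and 5 at least 2-fold lower. Members that rose had a median DMSO level of 45.9 CPM and those that fell a median of 111 CPM, against 36.9 CPM for members that were not called. Upper quartile scaling moved the median log2 change of all outside members to -0.013 and gave 1139 higher and 1211 lower, so which direction had more calls depended on the scaling. In bulk RNA, fewer cells of a type and less RNA per cell cannot be told apart. The 139 members set aside had 66 higher, 16 lower and 57 not called, with a median of 0.18 on the log2 scale, against a median of 0 over the outside members.

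**Figure D2:**
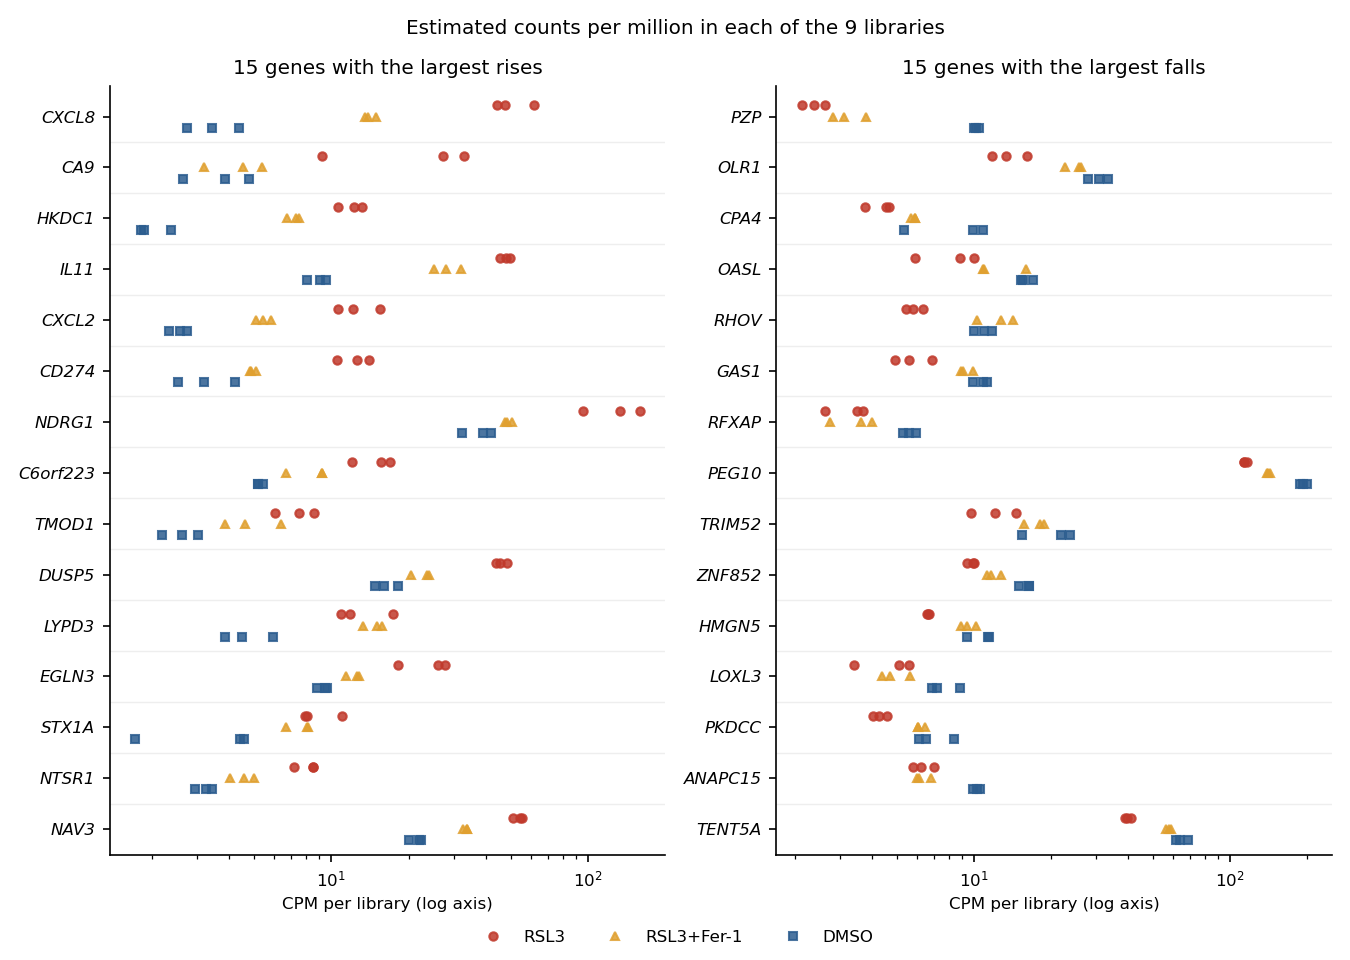
Level of each named riser and faller in CPM on a logarithmic axis, 1 point per library, for RSL3, RSL3 plus Fer-1 and DMSO. The 3 RSL3 libraries lie apart from the 3 DMSO libraries in every gene drawn, which the rule for naming genes required, and the RSL3 plus Fer-1 libraries lie between them for most of the risers.

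Secreted signals included CXCL8, the gene with the largest rise among those named by size. CXCL8, the neutrophil chemokine interleukin-8, lies on chromosome 4 at 73740541 to 73742330. It had 61.5, 47.6 and 44.2 CPM in the RSL3 libraries, 13.5, 14.9 and 13.9 CPM with RSL3 plus Fer-1, and 4.37, 2.74 and 3.45 CPM with DMSO. The 3 groups did not overlap, and RSL3 exceeded DMSO 14.5-fold (log2 change 3.86, SE 0.16, adjusted p = 7.51e-11). IL11, a cytokine of the interleukin-6 family on chromosome 19 at 55364351 to 55370463, had 49.4, 47.9 and 45.4 CPM with RSL3, 27.9, 25 and 31.9 CPM with RSL3 plus Fer-1, and 9.54, 8.01 and 9.04 CPM with DMSO. Again no library of one group reached the range of another. The change was 2.42 on the log2 scale (SE 0.10, adjusted p = 2.91e-16). CXCL2, a second neutrophil chemokine, had 15.5, 12.2 and 10.6 CPM with RSL3, 5.09, 5.83 and 5.43 CPM with RSL3 plus Fer-1, and 2.57, 2.74 and 2.33 CPM with DMSO. It rose by 2.32 (adjusted p = 1.09e-10). CSF1, the growth factor of macrophages, had 7.19, 7.52 and 9.90 CPM with RSL3, 5.59, 5.29 and 8.18 CPM with RSL3 plus Fer-1, and 4.34, 4.15 and 4.45 CPM with DMSO. All RSL3 libraries lay above all DMSO libraries (log2 change 0.93, adjusted p = 0.000557). LIF, another cytokine of the interleukin-6 family, rose by 0.44 (adjusted p = 0.000288), while IL18 fell by 0.27 (adjusted p = 0.000644). In all, 7 of 10 chemokines and interleukins rose and 1 fell, and with DMSO libraries 1 and 2 left out 6 rose and 1 fell.

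TGFA, EREG and HBEGF, ligands of the EGF receptor, were called higher. TGFA had 63.2, 61.3 and 67.8 CPM with RSL3, 37.0, 41.9 and 37.2 CPM with RSL3 plus Fer-1, and 33.0, 33.3 and 36 CPM with DMSO. RSL3 libraries stood above all others, and the change was 0.91 on the log2 scale (SE 0.07, adjusted p = 1.64e-10). EREG had 224, 200.02 and 197 CPM with RSL3, 112, 105 and 105 CPM with RSL3 plus Fer-1, and 136, 124 and 127 CPM with DMSO, so the Fer-1 group lay below both other groups. It rose by 0.68 with RSL3 over DMSO (adjusted p = 7.23e-11), and RSL3 plus Fer-1 over DMSO was -0.27 (adjusted p = 0.000615). HBEGF rose by 0.98 (adjusted p = 0.00239), a call that ended under limma, without RSL3 replicate 1 (adjusted p = 0.0559), and with DMSO libraries 1 and 2 left out. Of 23 growth factors 9 rose and 1 fell. Among Wnt genes RSPO3, a secreted enhancer of Wnt signalling, had 22.6, 18.6 and 19.1 CPM with RSL3, 19.9, 20.7 and 21.1 CPM with RSL3 plus Fer-1, and 11.7, 10.8 and 11.2 CPM with DMSO. Here the RSL3 plus Fer-1 libraries lay within the RSL3 range. Of 25 Wnt genes 5 rose and 1 fell, and without DMSO replicate 2 the 5 became 3. The Notch ligand JAG1 rose by 0.73 (adjusted p = 2.56e-10), 1 of 2 rises among 15 Notch genes. The gene families counted here and below were chosen with earlier results of these data known, so their shares are descriptive and no test. Of 73 secreted signals together, 23 rose (31.5%) and 4 fell (5.48%), beside 13.2% and 11.2% of all outside members. With DMSO libraries 1 and 2 left out, 17 rose and 3 fell.

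Among genes of the MAP kinase pathway, several that inhibit it were called higher, picked here by size of change and not counted as a list. DUSP4, DUSP5 and DUSP6 encode phosphatases that switch off MAP kinases. They were counted with the protein tyrosine and PP1/PP2A phosphatases, of which 17 rose and 13 fell, so that family was not one-sided. Its 17 rises became 11 without RSL3 replicate 1, and its 13 falls became 8 without DMSO replicate 1 or 2. Upper quartile scaling gave it 13 rises and 14 falls. DUSP5 had 48.5, 45.5 and 43.6 CPM with RSL3, 24.0, 20.4 and 23.7 CPM with RSL3 plus Fer-1, and 16.1, 18.2 and 14.8 CPM with DMSO. The log2 change was 1.49 (SE 0.09, adjusted p = 1.64e-12), and the 3 groups did not overlap. DUSP4 had 207, 187 and 189 CPM with RSL3, 131, 136 and 145 CPM with RSL3 plus Fer-1, and 91.4, 89.1 and 87.8 CPM with DMSO (log2 change 1.12, adjusted p = 9.52e-16), again without overlap. DUSP6 rose by 1.12 (adjusted p = 1.53e-05). SPRY4, an inhibitor of RAS signalling below receptor tyrosine kinases, had 26.3, 25.8 and 21.6 CPM with RSL3, 14.4, 11.6 and 15.5 CPM with RSL3 plus Fer-1, and 10.8, 9.87 and 10.0 CPM with DMSO, a rise of 1.26 (adjusted p = 1.1e-08). ERRFI1, which binds and inhibits the EGF receptor, had 32.9, 25 and 28.5 CPM with RSL3, 15.4, 15.8 and 14.4 CPM with RSL3 plus Fer-1, and 12.2, 13.5 and 11.4 CPM with DMSO. RSL3 libraries stood above the other 6, and the rise was 1.22 (adjusted p = 3.72e-09). MAPK13, a p38 MAP kinase, averaged 12.1 ± 0.36 CPM with RSL3, 7.97 ± 0.20 CPM with RSL3 plus Fer-1 and 4.96 ± 0.32 CPM with DMSO (SD, n = 3 each). MAP2K6, an upstream kinase of p38, fell by 0.48 (adjusted p = 0.000294). Of 79 RAS and MAP kinase genes 17 rose and 3 fell, and the 17 became 11 without DMSO replicate 2 and 10 with DMSO libraries 1 and 2 left out. The called share of 25.3% was near the 24.4% of all outside members.

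Transcription factors changed in both directions, and most members of the families counted were not called. The shares of all outside members were 13.2% higher and 11.2% lower. The AP-1 subunits JUN, JUNB and FOSL1 are dimer partners that bind the same DNA motif. JUNB had 38.4, 34.2 and 32.7 CPM with RSL3, 22.4, 20.6 and 23.7 CPM with RSL3 plus Fer-1, and 15.1, 17.0 and 18.0 CPM with DMSO. FOSL1 had 35.1, 33.0 and 30.5 CPM with RSL3, 20.4, 20.02 and 20.2 CPM with RSL3 plus Fer-1, and 17.2, 17.1 and 15.2 CPM with DMSO. For both genes the RSL3 libraries lay above the other 6, and the changes were 1.07 for JUNB (adjusted p = 1.7e-09) and 0.997 for FOSL1 (adjusted p = 3.57e-09). JUN rose by 1.06 (adjusted p = 7.39e-07). BHLHE40, a repressor of the circadian clock that also responds to low oxygen, had 104, 88.7 and 94.2 CPM with RSL3, 66.0, 65.3 and 72.2 CPM with RSL3 plus Fer-1, and 43.3, 42.9 and 47.6 CPM with DMSO. This was a rise of 1.10 (adjusted p = 8.93e-13). KLF6 rose by 0.88, the NF-kappa B subunit RELB by 0.98 and ETS1 by 0.67, each with an adjusted p of at most 8.27e-05. MITF, known as the master regulator of melanocytes, had 58.8, 58.7 and 56.7 CPM with RSL3, 74.2, 80.6 and 75.2 CPM with RSL3 plus Fer-1, and 81.3, 92.2 and 85.6 CPM with DMSO. RSL3 libraries were the lowest, and MITF fell by 0.57 (adjusted p = 2.61e-08). Among 67 helix-loop-helix and leucine zipper factors 19 rose, 8 fell and 40 were not called, and without DMSO replicate 2 the 8 became 5. Among 86 factors of the Krueppel, EGR, ETS and SNAI families 21 rose, 7 fell and 58 were not called. In the large group of 295 ZNF proteins 15 rose and 28 fell, counts that became 8 and 18 without DMSO replicate 2, 9 rises without RSL3 replicate 2 or DMSO replicate 3, 6 rises without RSL3 replicate 1 and 18 falls without DMSO replicate 1.

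The AP-1 motif was searched as TGANTCA in the promoters of the members because AP-1 subunits rose. N stands for any base, so TGAATCA, as in DOCK4, and TGATTCA, as in OSMR, count as matches too. All 6 stretches printed below hold TGACTCA or TGAGTCA, and the shares given below count every form. RefSeq promoters of 300 bases, 250 before and 50 after the start, on GRCh38.p14 were found for 6272 of 7646 outside members with the name of 1 gene (82%). Both strands were searched. The stretches below show where the motif lies in 6 members that rose and hold 1 match before the start, chosen after their values were seen, and are printed 5′ to 3′ on the strand of the gene, with the AP-1 match in capitals and 30 bases on either side. That of CXCL8 lies at chr4:73740402-73740468 on the plus strand with the match 137 bases before the start, IL11 at chr19:55370523-55370589 on the minus strand with 96 bases, and CA9 at chr9:35673821-35673887 on the plus strand with 77 bases. That of RAB3B, a GTPase of secretory vesicles, lies at chr1:51990783-51990849 on the minus strand with 119 bases, that of SNX10, a sorting nexin, at chr7:26291670-26291736 on the plus strand with 162 bases, and that of HRH1, a histamine receptor, at chr3:11137137-11137203 on the plus strand with 71 bases.
CXCL8: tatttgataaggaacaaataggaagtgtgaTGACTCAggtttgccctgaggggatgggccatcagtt
IL11: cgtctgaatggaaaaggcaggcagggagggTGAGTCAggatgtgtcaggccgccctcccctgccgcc
CA9: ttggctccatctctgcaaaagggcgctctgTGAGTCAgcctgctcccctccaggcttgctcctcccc
RAB3B: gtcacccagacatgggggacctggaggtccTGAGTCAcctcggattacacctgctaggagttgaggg
SNX10: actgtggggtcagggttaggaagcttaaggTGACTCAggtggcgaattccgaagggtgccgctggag
HRH1: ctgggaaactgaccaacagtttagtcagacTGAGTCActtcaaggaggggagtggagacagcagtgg
RAB3B rose by 0.90, SNX10 by 0.69 and HRH1 by 0.63 on the log2 scale. The AP-1 motif lay in 55 of 818 promoters of members that rose (6.72%), in 21 of 650 of those that fell (3.23%) and in 166 of 4804 of those not called (3.46%). Among members at least 1.5-fold higher it lay in 18 of 154 (11.7%). Of all 27305 RefSeq promoters 7.76% held it, and of the 6272 matched members 3.86%, so the share among members that rose is above that of the other members and below that of all RefSeq promoters. Promoters of members that rose had a median GC content of 68.7%, against 65% for those that fell and 65.3% for those not called. The antioxidant element TGACNNNGC, whose first letters it shares with some matches of the AP-1 motif so that a match of one can overlap the other, lay in 13.9% of the promoters of members that rose, 13.7% of those that fell and 16.3% of those not called. The hypoxia element ACGTG lay in 25.3% of those that rose, 27.2% of those that fell and 28.3% of those not called. The kappa B motif, most of whose inner letters are free, lay in 80.4% of those that rose, 70.9% of those that fell, 73.3% of those not called and 58% of all RefSeq promoters. The cyclic AMP element TGACGT, in its short form, which can overlap the hypoxia element, lay in 11%, 12.2% and 13.3% in the same order, the sterol element TCACNNCAC in 2.93%, 3.54% and 3.08%, the CArG box in 0.978%, 1.54% and 1.21%, and the CHR element TTTGAA in 8.68%, 11.8% and 9.66%. Over all RefSeq promoters the shares were 13.6% for the antioxidant, 21.6% for the hypoxia, 8.32% for the cyclic AMP and 3.55% for the sterol element, 1.29% for the CArG box and 15.4% for the CHR element. These are letter matches and say nothing about binding.

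**Figure D3:**
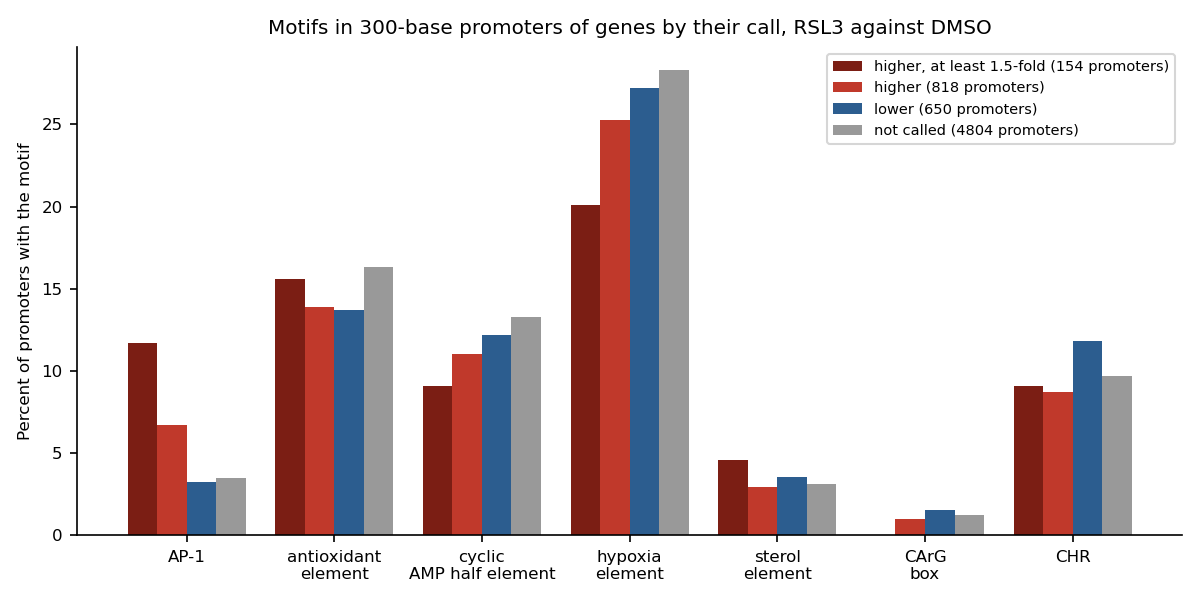
Percent of 300-base RefSeq promoters that hold each of 7 motifs on either strand, for outside members at least 1.5-fold higher, all called higher, called lower and not called. The AP-1 motif is held by 11.7% of the 154 promoters of members at least 1.5-fold higher, by 6.72% of the 818 promoters of members called higher, 3.23% of the 650 called lower and 3.46% of the 4804 not called, and the antioxidant and hypoxia elements by smaller shares of the promoters called higher than of those not called.

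Receptors for cytokines were more often higher than lower, beside 13.2% higher and 11.2% lower over all outside members. OSMR and IL6ST form the receptor of oncostatin M, and IL6ST also carries signals of IL11 and LIF. OSMR had 426, 404 and 405 CPM with RSL3, 293, 289 and 300.1 CPM with RSL3 plus Fer-1, and 242, 251 and 257 CPM with DMSO. The groups did not overlap and the rise was 0.72 (SE 0.04, adjusted p = 3.05e-14). IL6ST rose by 0.49 (adjusted p = 4.24e-10), IL4R by 0.74 (adjusted p = 2.38e-08) and IL7R by 0.76 (adjusted p = 2.34e-05). Of 41 cytokine and death receptors 13 rose and 2 fell, and the 13 became 8 without RSL3 replicate 1 and 7 without DMSO replicate 2. NTSR1, the neurotensin receptor, had 8.47, 7.18 and 8.50 CPM with RSL3, 4.56, 4.05 and 5.01 CPM with RSL3 plus Fer-1, and 2.94, 3.44 and 3.26 CPM with DMSO. It rose by 1.32 (adjusted p = 2.77e-06), and F2RL1, a receptor cleaved by proteases, rose by 1.01 (adjusted p = 2.79e-06). Of 56 G protein-coupled receptors 19 rose and 3 fell. Of 23 receptor tyrosine kinases 8 rose and 1 fell, with EPHB2 at 0.71 (adjusted p = 4.05e-05) and EPHA2 at 0.48 (adjusted p = 3.39e-09). The 120 receptors together had 40 rises (33.3%) and 6 falls (5%), and with DMSO libraries 1 and 2 left out 23 rises and 3 falls.

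CD274, the immune checkpoint ligand PD-L1 on chromosome 9 at 5450503 to 5470566, had 14, 12.5 and 10.5 CPM with RSL3, 4.86, 4.81 and 5.10 CPM with RSL3 plus Fer-1, and 4.23, 3.19 and 2.54 CPM with DMSO. RSL3 libraries stood well above the other 6, and CD274 rose 3.72-fold (log2 change 1.89, SE 0.18, adjusted p = 1.13e-08). LYPD3, a surface protein held by a lipid anchor, had 17.3, 11.8 and 10.9 CPM with RSL3, 15.8, 13.3 and 15 CPM with RSL3 plus Fer-1, and 5.93, 4.50 and 3.87 CPM with DMSO. The RSL3 plus Fer-1 libraries lay inside the RSL3 range, and the rise with RSL3 over DMSO was 1.48 (adjusted p = 2.26e-06).

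Cell surface and matrix genes rose more often than they fell, in 61 of 169 members (36.1%) against 15 (8.88%). Over all outside members 13.2% were higher and 11.2% lower. Integrins are paired receptors for matrix proteins. ITGA2, the alpha chain of a collagen receptor, had 189, 177 and 177 CPM with RSL3, 119, 125 and 122 CPM with RSL3 plus Fer-1, and 97.0, 92.2 and 87.6 CPM with DMSO. The groups did not overlap, and the rise was 0.97 (SE 0.05, adjusted p = 1.13e-14). ITGB4, which binds laminin in hemidesmosomes, rose by 0.67 (adjusted p = 3.93e-05) and ITGA5, of the fibronectin receptor, by 0.43 (adjusted p = 2.38e-08). Of 13 integrins 7 rose, and with DMSO libraries 1 and 2 left out 6 rose. The RGD-binding ITGAV differed by 0.05 and ITGB5 by 0.02, neither of which was called. The lysosomal and secreted proteases CTSL and CTSB rose by 0.77 (adjusted p = 1.31e-09) and 0.56 (adjusted p = 1.22e-09). The collagenase MMP1 was called lower by -0.99 (adjusted p = 0.048), a call that ended in 10 of 15 alternatives, and its change was 0.13 with DMSO libraries 1 and 2 left out. Of 38 matrix proteases and inhibitors 16 rose and 1 fell.

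Among matrix glycoproteins SMOC1, a calcium-binding protein of basement membranes, had 278, 257 and 263 CPM with RSL3, 273, 277 and 287 CPM with RSL3 plus Fer-1, and 163, 158 and 159 CPM with DMSO. RSL3 and RSL3 plus Fer-1 libraries overlapped and all lay above DMSO, and the rise with RSL3 over DMSO was 0.73 (adjusted p = 8.66e-14). COL12A1, a collagen that decorates fibrils, fell by 0.38 (adjusted p = 1.45e-09). Its levels were 359.7, 354 and 353 CPM with RSL3, 385, 384 and 382 CPM with RSL3 plus Fer-1, and 472, 464 and 448 CPM with DMSO, so that DMSO library 3 lay with DMSO libraries 1 and 2. Of 39 collagens, laminins and matrix glycoproteins 13 rose and 5 fell, and the 5 became 3 without RSL3 replicate 3 or DMSO replicate 1 and 1 with DMSO libraries 1 and 2 left out. The fibroblast markers named above summed to 155, 179 and 59.3 CPM in DMSO libraries 1, 2 and 3, a drop in library 3 that COL12A1 did not share. The part of the fibroblast transcripts in the falls of this family was not tested. The list of cadherins, which also holds the desmosomal plaque protein PKP2, differed from the other adhesion families in the sign of most calls. Of its 20 members 2 were higher and 5 lower, among them PKP2 at -0.58 (adjusted p = 3.25e-06) and FAT4, a giant cadherin, at -0.50 (adjusted p = 1.6e-06). The claudin CLDN1 of tight junctions rose by 0.74 (adjusted p = 9.62e-09), the semaphorin SEMA4B by 0.93 (adjusted p = 1.66e-10), and the tetraspanin TSPAN9 by 1.02 (adjusted p = 7.59e-06). Of 25 guidance cues and receptors 9 rose and 2 fell, and of 17 tetraspanins 8 rose and 1 fell. With DMSO libraries 1 and 2 left out the 169 surface and matrix members had 44 rises and 5 falls.

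**Figure D4:**
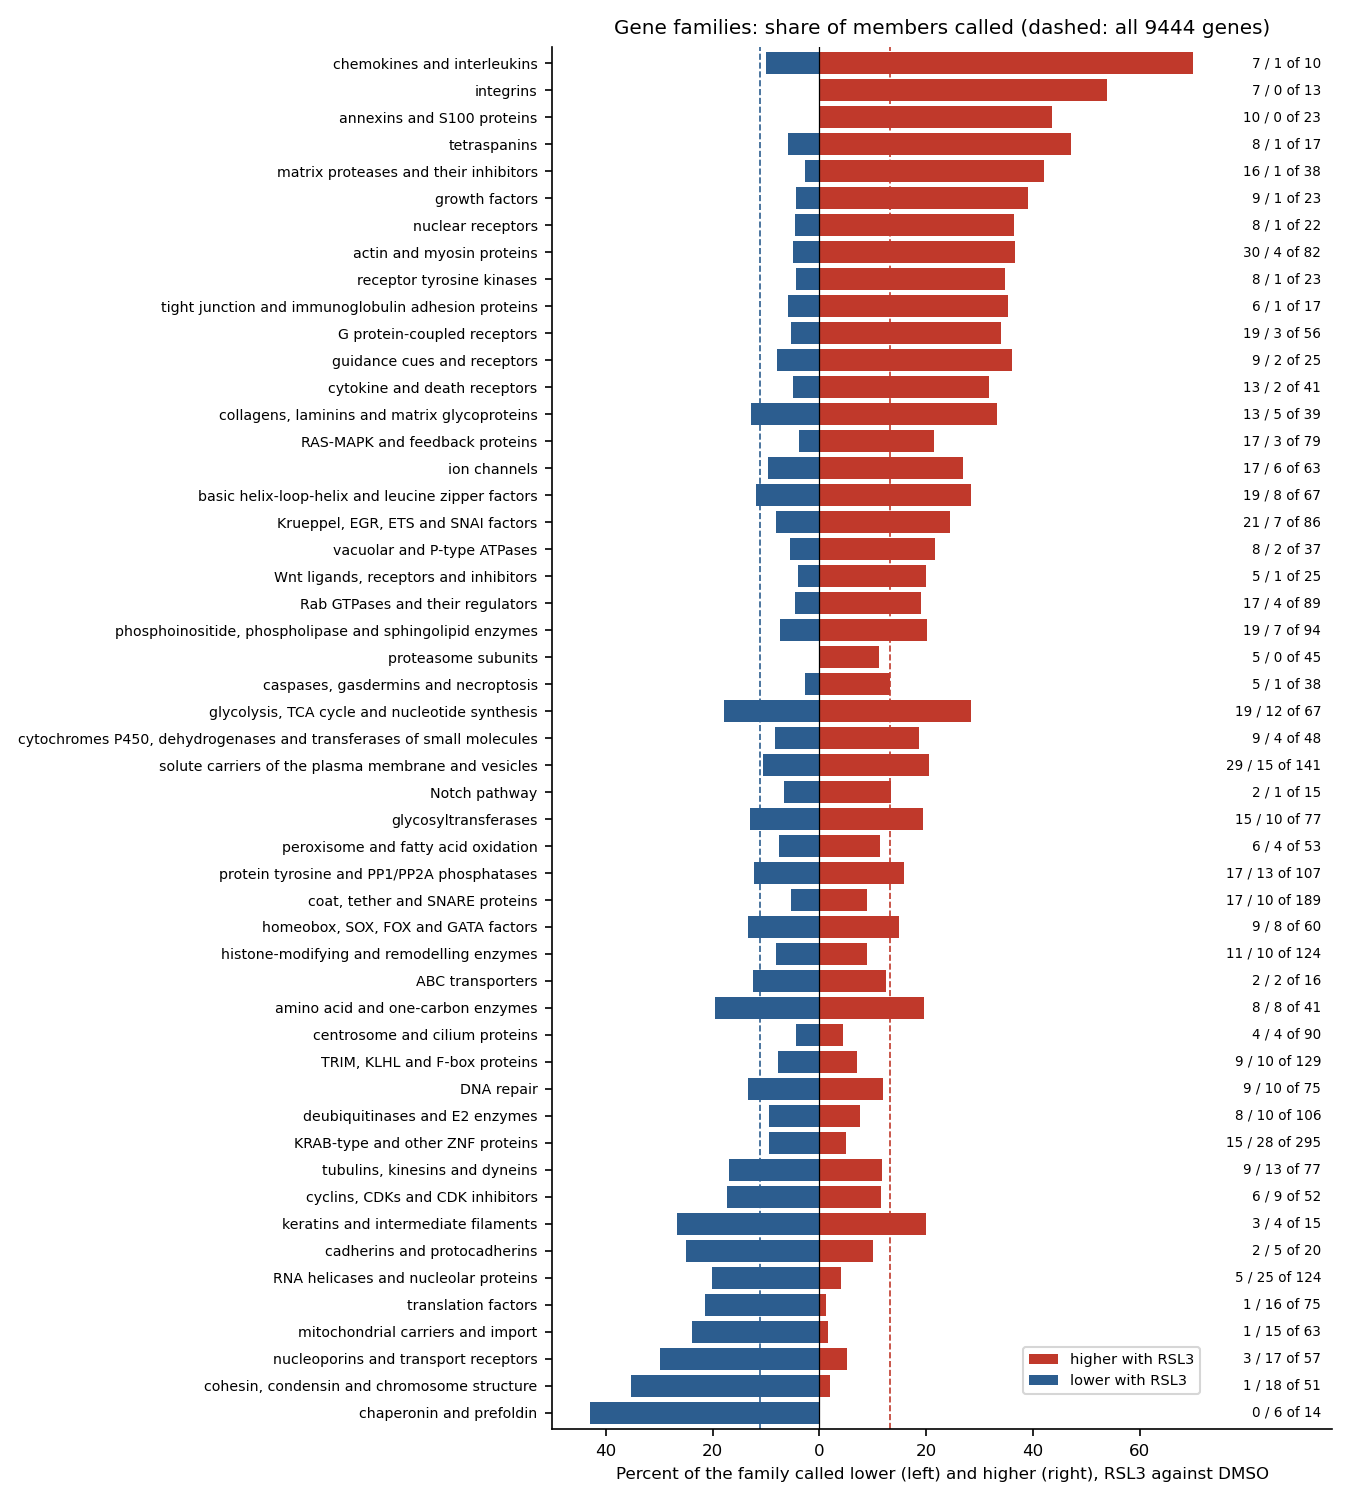
Percent of outside members called higher (bars to the right) and lower (bars to the left) with RSL3 in each gene family drawn; dashed lines mark 13.2% higher and 11.2% lower over all 9444 outside members. Secreted, receptor, actin and most adhesion families extend farther to the right than to the left. Nucleolar, translation, nucleoporin, chaperonin, mitochondrial carrier and chromosome structure families extend farther to the left. So do the cadherins, with 2 higher and 5 lower of 20.

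Cytoskeleton families differed in direction, beside 13.2% higher and 11.2% lower over all outside members. Of 77 tubulins, kinesins and dyneins 9 rose and 13 fell. Of 15 keratins and intermediate filaments 3 rose and 4 fell, and of 90 centrosome and cilium proteins 4 rose and 4 fell. Actin genes and annexins rose more often than they fell. CORO2A, a coronin, rose by 0.62 (adjusted p = 5.32e-05) and FMNL1, a formin that elongates actin filaments, by 0.54 (adjusted p = 3.24e-06). TMOD1, which caps the slow-growing end of actin filaments, rose by 1.49 (adjusted p = 6.59e-06) to 7.37 ± 1.26 CPM with RSL3, against 2.61 ± 0.42 CPM with DMSO (SD, n = 3 each). Of 82 actin and myosin proteins 30 rose and 4 fell, and with DMSO libraries 1 and 2 left out 22 rose and 1 fell. DOCK4, an activator of Rac, rose by 0.76 (adjusted p = 1.87e-08). ROCK2, a kinase that promotes actomyosin contraction, had 222, 187 and 211 CPM with RSL3, 234, 233 and 225 CPM with RSL3 plus Fer-1, and 296, 312 and 299 CPM with DMSO. All RSL3 libraries lay below the other 6, and ROCK2 fell by 0.55 (adjusted p = 1.07e-08). RHOV, a small GTPase, had 5.44, 5.81 and 6.34 CPM with RSL3, 10.3, 12.8 and 14.3 CPM with RSL3 plus Fer-1, and 10.96, 11.8 and 10.04 CPM with DMSO. RSL3 libraries were the lowest, and the fall was 0.90 on the log2 scale (adjusted p = 4.22e-05). NAV3, a protein of microtubule tips, had 54.1, 55.1 and 51.0 CPM with RSL3, 33.8, 33.8 and 32.6 CPM with RSL3 plus Fer-1, and 22, 22.4 and 20.03 CPM with DMSO, a rise of 1.32 (adjusted p = 2.56e-13). ANXA1, a calcium-dependent membrane-binding protein, had 401, 386 and 360.2 CPM with RSL3, 321, 316 and 312 CPM with RSL3 plus Fer-1, and 273, 273 and 262 CPM with DMSO. It rose by 0.51 (adjusted p = 1.18e-10), and of 23 annexins and S100 proteins 10 rose, and 6 rose with DMSO libraries 1 and 2 left out.

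NDRG1, CA9, EGLN3 and SLC2A3, known to respond to low oxygen, were called higher. They were picked among the rises and are no test of a response to oxygen. NDRG1, a stress-induced protein of differentiation, had 159, 95.7 and 133 CPM with RSL3, 48.5, 47.2 and 50.7 CPM with RSL3 plus Fer-1, and 32.2, 39 and 41.7 CPM with DMSO. CA9, a surface carbonic anhydrase, had 32.8, 9.18 and 27.3 CPM with RSL3, 3.19, 4.52 and 5.36 CPM with RSL3 plus Fer-1, and 3.86, 2.65 and 4.77 CPM with DMSO. RSL3 library 2 was the lowest of the 3 RSL3 libraries in both genes, although it stayed above every other library. EGLN3, an oxygen-dependent prolyl hydroxylase, had 26.1, 18.2 and 27.8 CPM with RSL3, 11.4, 12.8 and 12.6 CPM with RSL3 plus Fer-1, and 8.83, 9.42 and 9.67 CPM with DMSO. SLC2A3, a glucose transporter, had 87.4, 62.0 and 77.1 CPM with RSL3, 37.3, 41.0 and 42.0 CPM with RSL3 plus Fer-1, and 33.0, 32.7 and 37.9 CPM with DMSO. The same RSL3 library 2 was lowest in EGLN3 and SLC2A3. The log2 changes were 1.78 for NDRG1 (adjusted p = 0.00145), 2.62 for CA9 (adjusted p = 0.0199), 1.37 for EGLN3 (adjusted p = 1.39e-08) and 1.13 for SLC2A3 (adjusted p = 1.8e-05). The call of CA9 ended in the fit of 6 libraries (adjusted p = 0.0699) and without RSL3 replicates 1 or 3 or DMSO replicates 1, 2 or 3, with adjusted p up to 0.0774. With DMSO libraries 1 and 2 left out, the calls of CA9 (adjusted p = 0.307) and NDRG1 (adjusted p = 0.073) ended. The shares over all outside members were 13.2% higher and 11.2% lower. Of the 68 outside members that the KEGG column of the deposited table places in HIF-1 signalling, a list chosen after the values were seen, 24 rose (35.3%) and 3 fell (4.41%). Without DMSO libraries 1 and 2, 17 rose.

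Metabolic genes changed in both directions, beside 13.2% higher and 11.2% lower over all outside members. HKDC1, a member of the hexokinase family on chromosome 10 at 69220332 to 69267552, had 12.3, 13.2 and 10.7 CPM with RSL3, 7.31, 6.73 and 7.50 CPM with RSL3 plus Fer-1, and 1.82, 2.37 and 1.86 CPM with DMSO. The 3 groups did not overlap, and HKDC1 rose 5.97-fold (log2 change 2.58, SE 0.17, adjusted p = 8.73e-12). ALDOC, a glycolytic aldolase, rose by 0.85 (adjusted p = 6.05e-05) and PCK2, the mitochondrial enzyme that makes phosphoenolpyruvate, by 0.71 (adjusted p = 3.45e-05). IMPDH2, of guanine nucleotide synthesis, fell by 0.35 (adjusted p = 3.35e-07), and CAD, of pyrimidine synthesis, was called lower at -0.18 (adjusted p = 0.00742), a call that ended under limma and without DMSO replicate 1 (adjusted p = 0.0514). Of 67 genes of glycolysis, the TCA cycle and nucleotide synthesis 19 rose and 12 fell, and without DMSO replicate 1 the 12 became 7. In the KEGG column of the deposited table, purine metabolism had 12 higher and 12 lower of 78 members and pyrimidine metabolism 4 higher and 3 lower of 41. CPS1, the urea cycle enzyme that makes carbamoyl phosphate, had 1038, 1087 and 1155 CPM with RSL3, 1503, 1585 and 1624 CPM with RSL3 plus Fer-1, and 1437, 1479.6 and 1515 CPM with DMSO. RSL3 libraries lay below the other 6, and CPS1 fell by 0.43 (adjusted p = 1.14e-08). KYNU, an enzyme of tryptophan breakdown, rose by 0.42 (adjusted p = 1.13e-09), and SRM, which makes spermidine, fell by 0.29 (adjusted p = 0.000172).

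Membrane transporters also split, and over all outside members 13.2% were higher and 11.2% lower. SLC20A1, a phosphate transporter, had 401, 401 and 387 CPM with RSL3, 270.3, 265 and 266 CPM with RSL3 plus Fer-1, and 216, 219.6 and 219.6 CPM with DMSO, a rise of 0.86 (SE 0.03, adjusted p = 2.73e-16). SLC39A10, a zinc importer, had 185, 182 and 194 CPM with RSL3, 208, 208 and 225 CPM with RSL3 plus Fer-1, and 286, 307 and 274 CPM with DMSO, a fall of 0.63 (adjusted p = 3.51e-11). In neither gene did the RSL3 libraries overlap any other library. Of 141 solute carriers of the plasma membrane and vesicles 29 rose and 15 fell, and the 15 became 9 without RSL3 replicate 2 and 8 without DMSO replicate 2. Carriers and import proteins of mitochondria had 1 of 63 higher and 15 lower, such as TIMM17A, a subunit of the inner membrane import channel, at -0.24 (adjusted p = 0.00111), whose call ended with DMSO libraries 1 and 2 left out (adjusted p = 0.117). With DMSO libraries 1 and 2 left out that family had 1 higher and 5 lower. Of 63 ion channel genes 17 rose and 6 fell, led by the potassium channel KCNJ12 at 0.83 (adjusted p = 1.19e-07), and the 6 became 3 without DMSO replicate 2 or 3. KCNJ12 has a near-identical copy, so its value is uncertain. The syntaxin STX1A of vesicle fusion was 1.33 higher (adjusted p = 0.0133), and in the fit of 6 libraries its adjusted p was 0.0519.

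Genes of other death pathways were called in shares that depended on the list. TNFAIP3, a ubiquitin-editing inhibitor of NF-kappa B and of death receptor signalling, had 34.6, 32.9 and 28.4 CPM with RSL3, 22.2, 21.7 and 21.8 CPM with RSL3 plus Fer-1, and 12.6, 15.2 and 17.3 CPM with DMSO. CASP4, an inflammatory caspase that senses bacterial lipopolysaccharide, had 29.3, 25.2 and 23.3 CPM with RSL3, 17.3, 15.6 and 15.1 CPM with RSL3 plus Fer-1, and 13.2, 13.5 and 12.5 CPM with DMSO. In both genes the RSL3 libraries stood above the rest, with rises of 1.09 for TNFAIP3 (adjusted p = 1.14e-08) and 0.99 for CASP4 (adjusted p = 9.08e-08). BIRC5, which blocks apoptosis and is needed in mitosis, was the member that fell, by 0.24 on the log2 scale (adjusted p = 0.000447). Of 38 caspases, gasdermins and necroptosis genes 5 rose and 1 fell, a called share of 15.8% that is below the 24.4% of all outside members, and without DMSO replicate 2 the 5 rises became 3. In the wider lists of the deposited KEGG column, apoptosis had 24 of 93 members higher and 7 lower, a called share of 33.3%. Necroptosis had 15 higher and 11 lower, a share of 24.3%. These counts became, with DMSO libraries 1 and 2 left out, 12 and 4 for apoptosis and 8 and 1 for necroptosis.

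**Figure D5:**
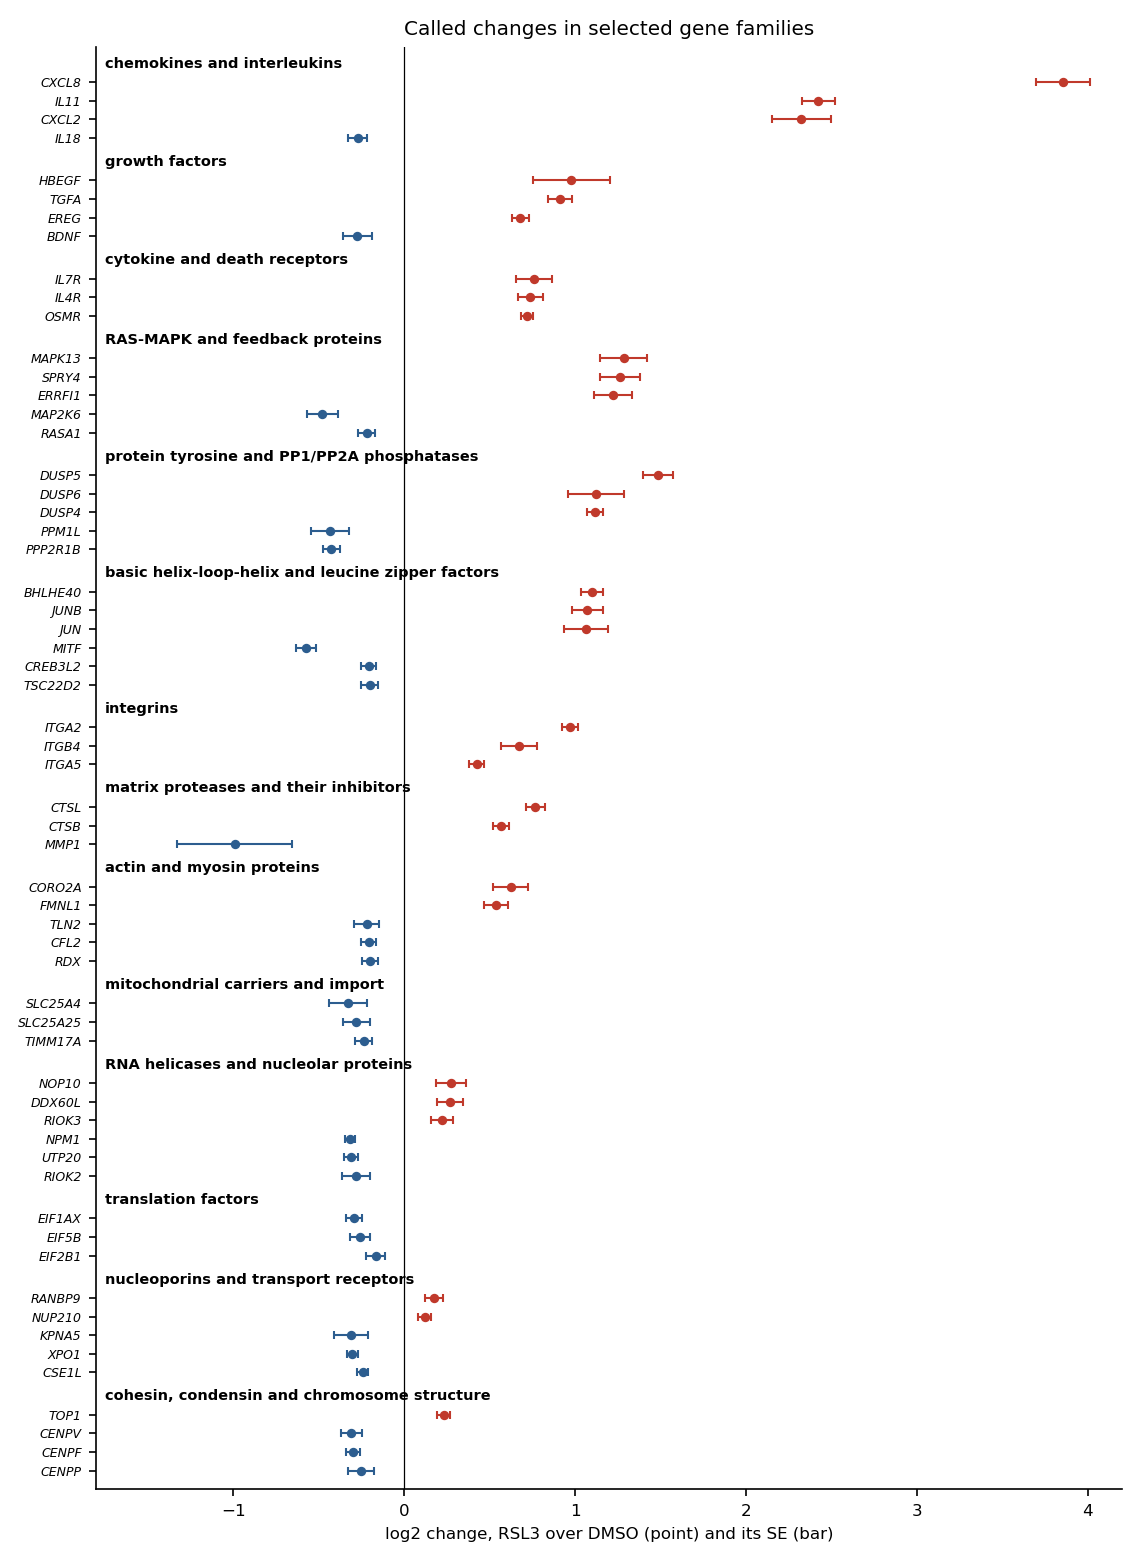
Log2 change of RSL3 over DMSO with its SE for genes called higher or lower in selected families, from edgeR's fit; points right of 0 are higher with RSL3. CXCL8 at 3.86 and IL11 at 2.42 lie farthest right, while the falls in nucleolar, translation and nuclear transport genes lie within about 0.3 of 0.

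Genes of RNA processing and translation fell in many members, by small amounts. Of 270 such members 64 fell (23.7%) and 9 rose (3.33%), against 11.2% and 13.2% of all outside members, and the 9 became 5 without RSL3 replicate 1 or 2. Leaving out 1 library gave 50 to 65 falls, and leaving out DMSO libraries 1 and 2 gave 28 falls and 3 rises. NPM1, an abundant chaperone of ribosome assembly in the nucleolus, had 1138, 1162 and 1077 CPM with RSL3, 1218, 1197 and 1229 CPM with RSL3 plus Fer-1, and 1388, 1432 and 1379 CPM with DMSO. It fell by 0.31 (SE 0.03, adjusted p = 9.9e-09), and UTP20, of the small subunit processome, fell by 0.31 (adjusted p = 3.13e-06). Of 124 helicases and nucleolar proteins 25 fell and 5 rose, and the 5 became 2 without RSL3 replicate 1, 3 without RSL3 replicate 2 and 1 without DMSO replicate 1. EIF1AX, an initiation factor, had 238, 243 and 239 CPM with RSL3, 279, 276 and 246 CPM with RSL3 plus Fer-1, and 285, 313 and 284 CPM with DMSO, a fall of 0.29 (adjusted p = 5.03e-05). NPM1 and EIF1AX have processed copies elsewhere in the genome, so their counts are uncertain to the extent that reads were shared. Of 75 translation factors 16 fell and 1 rose. XPO1, the main export receptor of the nucleus, had 538, 540.0 and 561 CPM with RSL3, 608, 591 and 610.4 CPM with RSL3 plus Fer-1, and 657, 705 and 660.0 CPM with DMSO. The groups did not overlap, and XPO1 fell by 0.30 (adjusted p = 9.21e-08). Of 57 nucleoporins and transport receptors 17 fell and 3 rose, and of 14 chaperonin and prefoldin subunits 6 fell. With DMSO libraries 1 and 2 left out, lower counts were 10 nucleolar, 7 translation, 9 nuclear transport and 2 chaperonin members.

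Genes of chromosome structure were also called lower more often than higher, beside 11.2% lower and 13.2% higher over all outside members. CENPF, a kinetochore protein of dividing cells, had 219, 198 and 217 CPM with RSL3, 258, 250.1 and 248 CPM with RSL3 plus Fer-1, and 248, 275 and 256 CPM with DMSO. RSL3 libraries lay below the other 6, and the fall was 0.30 (adjusted p = 1.01e-05). KIF20A, a kinesin of late mitosis, fell by 0.41 (adjusted p = 1.87e-07). It belongs to the tubulins, kinesins and dyneins, of which 9 of 77 rose and 13 fell. Without DMSO replicate 1 that list had 8 rises and 8 falls. CCNA2 belongs to the cyclins, CDKs and CDK inhibitors, of which 6 of 52 rose and 9 fell. Without DMSO replicate 2 the cyclin list had 8 rises and 7 falls. CCNA2, the cyclin of S phase and G2, fell by 0.31 (adjusted p = 0.000138), a call that ended with DMSO libraries 1 and 2 left out (adjusted p = 0.0928). Of 51 genes of cohesin, condensin and chromosome structure 18 fell and 1 rose, and the 18 became 11 without RSL3 replicate 2, 10 without DMSO replicate 2, and 5 with DMSO libraries 1 and 2 left out. DNA repair genes showed no such side, with 9 of 75 higher and 10 lower. Of 45 proteasome subunits 5 rose, a share of 11.1% that is below the 13.2% of all outside members called higher. PSMD2 was at 0.33 (adjusted p = 7.09e-08), and the 5 became 3 without RSL3 replicate 1 or 2.

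The largest single falls were few and mostly at low levels. PZP, a protease inhibitor of the alpha-2-macroglobulin family on chromosome 12 at 9148840 to 9208395, had 2.13, 2.38 and 2.63 CPM with RSL3, 2.82, 3.12 and 3.803 CPM with RSL3 plus Fer-1, and 10.21, 10.01 and 10.5 CPM with DMSO. It was 4.3-fold lower with RSL3 (log2 change -2.10, SE 0.18, adjusted p = 1.88e-09), and the RSL3 plus Fer-1 libraries lay near the RSL3 libraries. OLR1, the receptor of oxidised low-density lipoprotein, had 11.8, 16.2 and 13.4 CPM with RSL3, 25.9, 26.2 and 22.8 CPM with RSL3 plus Fer-1, and 28.0, 33.4 and 30.8 CPM with DMSO, a fall of 1.15 (adjusted p = 6.59e-09). Its RSL3 plus Fer-1 libraries lay near the DMSO libraries. GAS1, a surface co-receptor of hedgehog signalling, fell by 0.89 (adjusted p = 6.81e-05). PEG10, an imprinted gene derived from a retrotransposon, had 113, 117 and 114 CPM with RSL3, 144, 140.3 and 142 CPM with RSL3 plus Fer-1, and 200.1, 193 and 188 CPM with DMSO, a fall of 0.76 (adjusted p = 1.62e-13) with 3 separate groups. TENT5A, a terminal nucleotidyltransferase, fell by 0.69 (adjusted p = 2.84e-09) and HMGN5, a nucleosome-binding protein, by 0.70 (adjusted p = 0.000512). ANAPC15, a subunit of the anaphase-promoting complex, had 6.24, 7.002 and 5.77 CPM with RSL3, 6.03, 6.09 and 6.84 CPM with RSL3 plus Fer-1, and 9.95, 10.3 and 10.6 CPM with DMSO. Here the RSL3 and RSL3 plus Fer-1 libraries overlapped and the fall was 0.70 (adjusted p = 0.000959). The carboxypeptidase CPA4, the interferon-induced OASL, the MHC class II regulator RFXAP and the lysyl oxidase LOXL3 were called lower by -1.01, -0.95, -0.78 and -0.70. The change of CPA4 was -0.30 with DMSO libraries 1 and 2 left out (adjusted p = 0.571), and CPA4 stood at 9.95, 10.8 and 5.36 CPM in DMSO libraries 1, 2 and 3. The other calls also ended in that fit, which has 1 DMSO library, while the changes stayed at -0.88 for OASL (adjusted p = 0.0784), -0.76 for RFXAP (adjusted p = 0.143) and -0.61 for LOXL3 (adjusted p = 0.203). Leaving out RSL3 replicate 3 ended the call of RFXAP (adjusted p = 0.0518) and, with adjusted p up to 0.0752, that of LOXL3, which also ended without DMSO replicate 2.

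The group of RSL3 plus Fer-1 was compared with both others, and its comparisons share the RSL3 or the DMSO libraries with the main one. Over the outside members, RSL3 plus Fer-1 against RSL3 gave 344 higher (3.64%) and 532 lower (5.63%), and RSL3 plus Fer-1 against DMSO gave 553 higher (5.86%) and 378 lower (4%). CXCL8 was -1.86 with RSL3 plus Fer-1 over RSL3 (adjusted p = 2.94e-07) and 2.00 over DMSO (adjusted p = 4.8e-07). IL11 was -0.75 over RSL3 (adjusted p = 1.28e-06) and 1.67 over DMSO (adjusted p = 1.17e-12). HKDC1 was -0.75 over RSL3 (adjusted p = 0.00217) and 1.83 over DMSO (adjusted p = 1.8e-08). These 3 genes stood between both other groups. Some members were closer to DMSO than to RSL3. TGFA was -0.73 with RSL3 plus Fer-1 over RSL3 (adjusted p = 3.38e-08) and 0.18 over DMSO (adjusted p = 0.127), and CPS1 was 0.52 over RSL3 (adjusted p = 2.48e-09) and 0.09 over DMSO (adjusted p = 0.175). CD274 was -1.33 over RSL3 (adjusted p = 7.37e-06) and 0.57 over DMSO (adjusted p = 0.0578). The differences of TGFA and CD274 from DMSO were not called. In both genes, though, all RSL3 plus Fer-1 libraries lay above the DMSO libraries and below the RSL3 libraries. Other members were close to RSL3. SMOC1 was 0.07 with RSL3 plus Fer-1 over RSL3 (adjusted p = 0.356) and 0.80 over DMSO (adjusted p = 4.34e-14), LYPD3 was 0.14 (adjusted p = 0.75) and 1.63 (adjusted p = 1.82e-06), and RSPO3 was 0.03 (adjusted p = 0.928) and 0.87 (adjusted p = 1.92e-06). PZP was 0.45 over RSL3 (adjusted p = 0.172) and -1.65 over DMSO (adjusted p = 2.37e-07), and ANAPC15 was -0.00 (adjusted p = 0.994) and -0.70 (adjusted p = 0.00213). A p that misses the threshold does not show that 2 groups have the same level. The study has no library of Fer-1 alone or of a compound without activity against GPX4 among those used here, so the part of Fer-1 itself in these levels was not tested.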

How the data were processed

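Total RNA of 9 libraries was sequenced, 3 each with RSL3, RSL3 plus Fer-1 and DMSO. The submitters' processing notes list cutadapt 1.9, FastQC and the build GRCh38. For the aligner, assembler, counter and strandedness, no name is given in the sources used here. The table deposited by the authors holds an estimated count (whole numbers, not scaled) and an FPKM, scaled by the authors for length and depth, per locus and library, per the file headers. Loci without a name, 1496 with 0.48 to 0.546% of the counts, were left out. The remaining counts were 38945449 to 45620248 per library, so that a floor of 3 counts equals 0.0658 to 0.077 CPM, which covers counting error only. Locus coordinates are those of the table.

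Named loci with at least 1 FPKM in at least 3 libraries were tested with edgeR 4.0.16 (R 4.3.3), TMM factors and 1 quasi-likelihood model of 3 groups with no covariate. Benjamini-Hochberg adjustment ran over 17297 loci. CPM were scaled by these factors, and SEs come from the F statistic. On simulated counts with 200 changed loci among 17297, RSL3 against DMSO recovered 53% of log2 changes of 0.5 and 73% of log2 changes of 1. Of the calls 8.7% were false, above the 0.05 threshold. In the data 2854 loci were called, and the median called change of outside members was 0.27. These rates may therefore not carry over to the data. Alternatives were other scalings, DESeq2 1.42.0, limma 3.58.1 on log2(FPKM + 1), other filters, the 6 libraries of both groups, a replicate block, and each library left out.

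Members, gene lists and families were chosen with earlier results of these data known. Counts over KEGG pathways use the pathway column of the deposited table. Named genes were the 15 largest rises and 15 largest falls among called outside members with the name of 1 gene, a mean of at least 5 CPM in RSL3 or DMSO and no overlap between these libraries, plus up to 3 rises and 3 falls per family and members named by role. Some genes that this rule names are not reported here. Of the outside members 1798 lie in loci that join several genes and are counted but not named. Without strand, reads of overlapping genes cannot be told apart. No replicates were identical. Promoter motifs were searched in RefSeq sequences on both strands, and 7 of them are drawn.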

Additional observations from a re-analysis of the deposited data

How the results depend on the processing

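The counts of outside members were 1248 higher and 1058 lower, and 882 and 763 with limma, 1412 and 1206 with DESeq2 (which gave 3023 adjusted p-values as NA), 1272 and 1001 with filterByExpr, 1236 and 1064 with no filter, 1253 and 1055 with size factors of the DESeq2 type and 1214 and 902 in the 6 libraries. Upper quartile scaling gave 1139 higher and 1211 lower, or 48.5% higher in place of 54.1%. Leaving out 1 library gave 1012 to 1155 outside members higher and 734 to 887 lower, 1072 to 1219 members higher and 747 to 904 lower, 2156 to 2521 loci called, and 36 to 39 of 52 families with more higher than lower. The replicate block gave 1226 higher and 1038 lower, with 2213 calls shared. Same-numbered RSL3 and DMSO libraries had correlations of deviations of -0.05, -0.01 and 0.04, so they share only a number.

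Leaving out DMSO libraries 1 and 2 together was chosen after seeing the data. It gave 1403 loci called, 814 members higher and 353 lower, 757 outside members higher and 346 lower (68.6% higher), and 41 families with more higher than lower, against 35 with all libraries. Of the 2306 calls 1047 were also called in the same direction, and 1 of the 2306 had the opposite sign; that fit has fewer samples. Protein turnover had 21 higher and 20 lower, and changed sides between settings. Genes near the floor of counts could not be separated at this depth, and rises and falls under 1.2-fold rest on small spreads between 3 libraries.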

Other observations

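Pathway names in the deposited annotation were counted after the values were seen, over 233 pathways with at least 20 outside members. Of 124 members of the spliceosome 32 were lower with RSL3 and 1 was higher, and of 127 members of the ribosome 19 were lower and 1 was higher. Of 100 lysosome members 27 were higher and 3 lower, of 39 members of matrix receptor interaction 17 were higher and 2 lower, and of 68 members of HIF-1 signalling 24 were higher and 3 lower. These pathways overlap with the families described above and with each other. The backgrounds are 13.2% higher and 11.2% lower.

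Some well-expressed members that rose without standing among the 15 largest rises were chosen after their values were seen. SEL1L3, a membrane protein, had 103, 108 and 112 CPM with RSL3, 91.5, 95.3 and 99.5 CPM with RSL3 plus Fer-1, and 49.97, 42.0 and 49.6 CPM with DMSO. IER3, an early response gene, had 159, 147 and 138 CPM with RSL3, 66.6, 63.7 and 71.1 CPM with RSL3 plus Fer-1, and 63.0, 64.3 and 58.3 CPM with DMSO. The RSL3 plus Fer-1 libraries thus lay near RSL3 in SEL1L3 and near DMSO in IER3, by -0.17 (adjusted p = 0.0906) and -1.14 (adjusted p = 4.89e-13) over RSL3 in edgeR's test. CDCP1, a surface substrate of SRC kinases, had 152, 122 and 123 CPM with RSL3, 84.0, 83.8 and 85.1 CPM with RSL3 plus Fer-1, and 62.7, 56.9 and 54.0 CPM with DMSO, with 3 separate groups.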
